A study of Mus musculus with 6 samples.

Results

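The liver makes glucose from lactate, amino acids and glycerol, stores it as glycogen and releases it to the blood. The genes described here are 9 genes of gluconeogenesis and hepatic glucose handling: Pck1, G6pc, Fbp1, Pcx, Slc2a2, Ppargc1a, Gys2, Pygl and Pfkfb1. Every probe set annotated to exactly 1 of them was taken, without regard to its signal. This gave 18 of the 45101 probe sets on the array, for 8 of the 9 genes. No such probe set was found for Pfkfb1, which was not analysed here. Of the 18, 14 were among the 45037 probe sets tested, and the other 4 are array control probe sets for Pcx that serve as a check of RNA integrity and are only described.

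RNA came from the liver of male A/J mice and male A/J-12SM mice. A/J is an inbred strain, and A/J-12SM is a consomic strain in which chromosome 12 of A/J has been replaced by that of the SM/J strain. Both strains had been given a high-fat diet for 7 weeks, so that no array measured either strain on a normal diet. Each strain was measured on 3 arrays, and each array carried RNA pooled from 3 mice, so the spread between arrays is one between pools. The study's mice were fed to 13 weeks of age and fasted for 4 h before dissection, but these sources do not state whether the livers on the arrays were taken in the same way. The strains differ over a whole chromosome, so a difference between them cannot be assigned to 1 locus. Of the listed genes, only Pygl lies on chromosome 12.

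In gluconeogenesis, pyruvate is carboxylated in mitochondria by pyruvate carboxylase (Pcx) and the oxaloacetate formed is turned into phosphoenolpyruvate by phosphoenolpyruvate carboxykinase (Pck1). Fructose bisphosphatase (Fbp1) and glucose 6-phosphatase (G6pc) carry out the later irreversible steps, and the glucose formed can leave the hepatocyte through the transporter GLUT2 (Slc2a2). Glucagon, acting through cAMP, and glucocorticoids raise transcription of Pck1 and G6pc in fasting, with the coactivator PGC-1alpha (Ppargc1a) among the mediators, while insulin represses both. Glycogen is built by liver glycogen synthase (Gys2) and broken down by liver glycogen phosphorylase (Pygl).

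Values are log2 signals after quantile normalization, which gives all arrays the same distribution of values, and a difference is the A/J-12SM mean minus the A/J mean. The 6 arrays correlated at 0.921 to 0.933 within and 0.922 to 0.93 between the strains, and no array repeated another. As deposited, signals were lower in A/J-12SM, with a median difference over all probe sets of -0.22, so each small difference below depends on the scaling. The 95% intervals are those of single probe sets and are not adjusted for the number tested. Over all probe sets, 25 of 45037 (0.0555%) were called at an adjusted p under 0.05, 11 higher and 14 lower in A/J-12SM. Taken as deposited, 47 were called, 9 higher and 38 lower. Each array's signals of 7 hepatocyte markers summed to between 106000 and 107000 in A/J and between 109000 and 111000 in A/J-12SM. Of the 7, 4 had higher and 3 lower values in A/J-12SM (median difference 0.013), none called. Cps1 (0.28) and Alb (0.11) were higher there without overlap. All 8 Kupffer cell markers had lower values in A/J-12SM (median difference -0.27), none called, and their sums ranged from 5710 to 7000 in A/J and from 5020 to 6140 in A/J-12SM. Of the other marker lists, those of periportal hepatocytes summed to 19500 to 21000 in A/J and 18000 to 19800 in A/J-12SM. There 1 marker was higher and 2 lower, with Hsd17b13 lower without overlap (-0.28). Those of pericentral hepatocytes summed to 34700 to 38400 in A/J and 35300 to 36800 in A/J-12SM. There 2 were higher and 2 lower, with Glul lower (-0.41) and Cyp1a2 higher (0.44), both without overlap. None of these markers was called. Of 8 stellate cell and fibroblast markers, 7 had higher values in A/J-12SM, none called, but most only slightly (median difference 0.025). Their sums were 4270 to 4930 in A/J and 4840 to 5510 in A/J-12SM. The highest differences were those of Lum (0.64) and of Reln (0.46), the latter without overlap. Sinusoidal endothelial markers summed to 3160 to 3360 in A/J and 3190 to 3380 in A/J-12SM. There 2 were higher and 3 lower, none called, with Lyve1 lower without overlap (-0.45). Below the median brightness of all probe sets were 3 of 4 bile duct markers (Krt19, Krt7 and Sox9), 2 of 3 adipocyte markers (Adipoq and Lep, with Fabp4 above it), 2 of 3 pancreatic acinar markers (Prss2 and Cpa1, with Cela1 above it), 2 of 4 muscle markers (Myh4 and Tnnt3), 1 of 3 lymphocyte markers (Cd3e) and 1 of 8 stellate cell and fibroblast markers (Col1a1, with Dcn, Reln and Col3a1 among those above it). The 5′ to 3′ signal ratio of actin, which drops when RNA is degraded, was 0.423 in A/J-12SM replicate 3 and 0.553 to 0.59 on the other 5 arrays. That of Gapdh was not lower there, at 1.53 in A/J-12SM replicate 3 and 1.45 to 1.55 on the other 5. The part of these in the differences below was not tested. In such whole-liver RNA, fewer cells of a type and less RNA per cell cannot be told apart.

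None of the 14 tested probe sets passed the threshold, and the smallest adjusted p among them was 0.09 (limma). Pck1 had the highest positive difference, with both of its bright probe sets higher in every A/J-12SM array than in any A/J array, by 1.75-fold and 2.07-fold. All 5 probe sets of Ppargc1a had a higher mean in A/J-12SM. G6pc and Pcx had a lower mean there, and Fbp1, Slc2a2 and Gys2 lay close to 0. In all, 12 of the 14 had a higher and 2 a lower mean in A/J-12SM, and with the values as deposited 9 were higher and 5 lower. At an unadjusted p under 0.05 stood 6 of the 14, 5 higher and 1 lower, against 7.6% of the 22519 probe sets not below the median brightness. The 3 arrays of 1 strain did not overlap those of the other for the same number, 6, against 13.8% of bright probe sets. As deposited this held for 3, which were the 2 bright ones of Pck1 and that of Pcx. The share over all probe sets was not counted for deposited values, so the 13.8% is no measure for these 3. Of the 14, 13 were at or above the median brightness. The probe sets of 1 gene share the RNA of the same arrays, so these counts are not counts of independent measurements. These genes, and the further lists below, were chosen with earlier results of these data known. Setting their counts beside the shares over the array is therefore not an independent comparison.

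Taking each gene by its brightest probe set, 6 of the 8 genes were higher and 2 lower, with a median difference of 0.10 against -0.006 over all 18193 genes. None was called, against 0.066% of all genes. With an unadjusted p under 0.05 were 3 of the 8, namely Pck1, Pygl and Pcx, against 7.98% of bright genes, and the same 3 had arrays that did not overlap, against 14% of bright genes. As deposited, 3 of the 8 were higher and 5 lower, with a median of -0.03 where that of all probe sets was -0.22. The error of a difference set what could be seen: over the 14 probe sets the SD within a strain ran from 0.0279 to 0.468 and the SE of the difference from 0.0771 to 0.456.

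**Figure D1:**
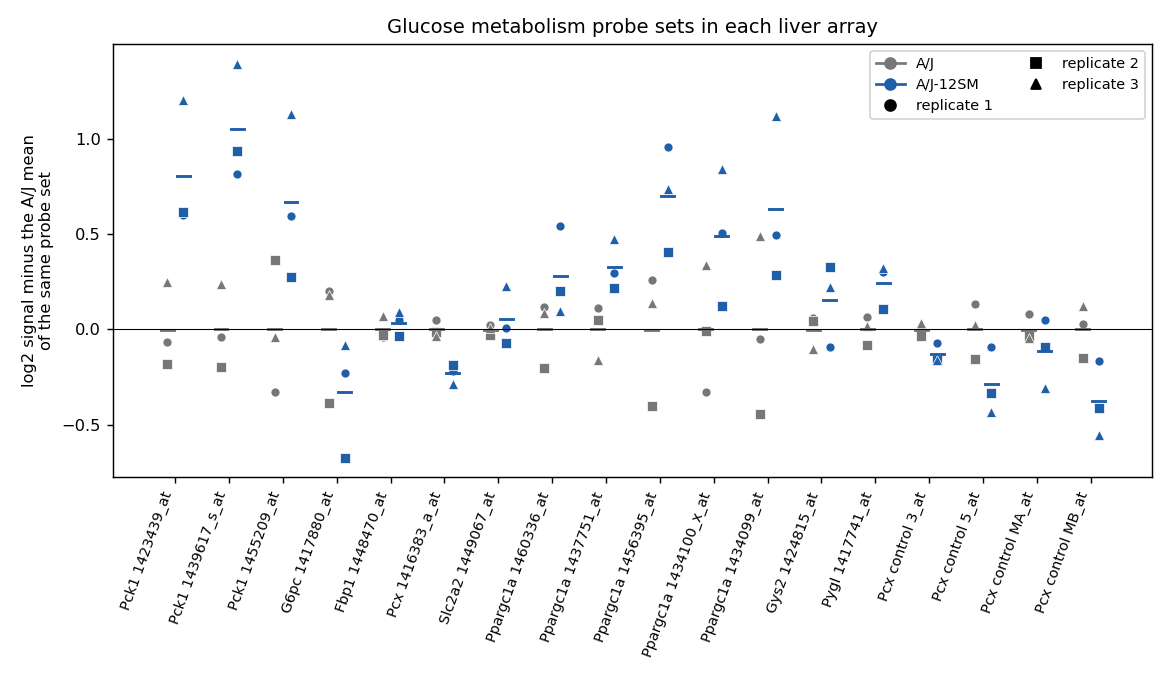
Log2 signal of each array minus the A/J mean of the same probe set, for the 14 tested and the 4 control probe sets. Grey points are A/J arrays and blue points A/J-12SM arrays, with a symbol per replicate and a short line at each strain's mean. Both bright Pck1 probe sets have all 3 blue points above all 3 grey points, and the points of G6pc overlap.

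Pck1 encodes the cytosolic phosphoenolpyruvate carboxykinase, the enzyme of gluconeogenesis that is controlled mainly through its transcription. It lies on chromosome 2 (173153073 to 173159274, build GRCm38.p6). Its brightest probe set, 1423439_at, gave log2 signals of 11.37, 11.25 and 11.68 in A/J, against 12.03, 12.05 and 12.63 in A/J-12SM. The lowest A/J-12SM array thus stood above the highest A/J array, and A/J-12SM replicate 3 was the highest of all. The difference was 0.81 ± 0.168 (SE, n = 3 arrays per strain; 95% interval 0.43 to 1.18), 1.75-fold, with an adjusted p of 0.338 (limma). In deposited signal units the arrays read 2907, 2481 and 3512 in A/J, against 3818, 4184 and 6050 in A/J-12SM, with the strains apart before normalization as well.

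The second probe set of Pck1, 1439617_s_at, gave 9.86, 9.70 and 10.14 in A/J, against 10.71, 10.83 and 11.29 in A/J-12SM. Its order of arrays matched that of the first at both ends, with A/J replicate 2 lowest and A/J-12SM replicate 3 highest, and the strains again did not overlap. The suffix s in its name marks a probe set whose probes can match more than 1 transcript. The difference was 1.05 ± 0.159 (SE, n = 3; 95% interval 0.69 to 1.40) with an adjusted p of 0.09 (limma). The third, 1455209_at, was dim, at the 36.9th percentile of brightness, and gave 3.76, 4.45 and 4.05 in A/J, against 4.68, 4.36 and 5.22 in A/J-12SM. Its strains overlapped and its difference of 0.67 had an SE of 0.456. An exact two-sided permutation test of each bright probe set gave p = 0.1, the smallest that 3 arrays against 3 allow.

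A/J-12SM replicate 3 was also the array with the lowest actin 5′ to 3′ ratio. Without it, the difference of the first probe set was 0.61 and that of the second 0.88, with adjusted p values of 0.272 and 0.0907 (limma). Among the 11042 genes at or above the median brightness, 1.19% had a larger difference than Pck1 in either direction, and Pck1 stood 46th from the highest. The 3 genes whose values followed those of Pck1 most closely over the 6 arrays, each centred on its own mean, were Cnmd, Slc5a3 and Prkag2, at root mean square distances of 0.102, 0.102 and 0.123 where the SD of Pck1 itself was 0.511. Their own differences were 0.84, 0.72 and 0.75, and none was called.

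The promoters of Pck1, G6pc and Ppargc1a are shown because these genes are known to respond to the same hormones. The sequences are those of RefSeq (build GRCm38.p6), 5′ to 3′ on the strand of the gene, from 250 bases before the annotated start of transcription to 50 bases after, and they are the reference sequence, not that of A/J or SM/J. Capitals mark matches to the motifs searched on both strands: TGACG (the half-site of the cAMP response element, printed as CGTCA where it lies on the strand opposite to the gene's), TGTTTAC (a core bound by FOXO factors), TGTTTTG (a core of insulin response sequences, sharing its first 5 letters with the former) and TATAAA (the TATA box).
Pck1 promoter, chr2:173152823-173153122, plus strand: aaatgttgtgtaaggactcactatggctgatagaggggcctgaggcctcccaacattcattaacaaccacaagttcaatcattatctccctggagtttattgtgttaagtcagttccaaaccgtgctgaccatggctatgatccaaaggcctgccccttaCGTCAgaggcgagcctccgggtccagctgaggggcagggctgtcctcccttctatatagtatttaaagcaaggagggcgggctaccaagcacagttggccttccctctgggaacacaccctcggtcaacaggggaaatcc
G6pc promoter, chr11:101367466-101367765, plus strand: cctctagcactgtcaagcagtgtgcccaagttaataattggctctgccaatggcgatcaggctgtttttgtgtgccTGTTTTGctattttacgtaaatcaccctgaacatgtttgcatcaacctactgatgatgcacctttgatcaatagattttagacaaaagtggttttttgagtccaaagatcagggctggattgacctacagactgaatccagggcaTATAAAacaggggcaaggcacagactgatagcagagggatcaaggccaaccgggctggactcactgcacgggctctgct
Ppargc1a promoter, chr5:51567676-51567975, minus strand: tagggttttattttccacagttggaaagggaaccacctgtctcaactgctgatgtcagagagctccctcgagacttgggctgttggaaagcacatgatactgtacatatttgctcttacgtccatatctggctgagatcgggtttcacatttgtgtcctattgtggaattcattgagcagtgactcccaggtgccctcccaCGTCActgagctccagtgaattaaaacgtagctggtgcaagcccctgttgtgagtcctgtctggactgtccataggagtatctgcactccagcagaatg
The window of Pck1 holds TGACG on the strand opposite to the gene's, with the first printed base at -90 from the start. That of Ppargc1a, which is 1 annotated start in a gene with other promoters, holds it at -49, again opposite to the gene's strand. In G6pc, TGTTTTG begins at -174 and TATAAA at -29. The window of Pygl has TGACG at -44, likewise opposite to the gene's strand. Of 32851 annotated promoter windows of this length, 20.8% hold TGACG, 3.65% TGTTTAC, 6.28% TGTTTTG and 13.6% TATAAA. No window of the 9 genes held TGTTTAC. These matches describe the letters and were not tested as binding sites. A window without a match may hold related elements in other letters, which were not searched, and a link to the strain differences was not tested.

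G6pc encodes the catalytic subunit of glucose 6-phosphatase, which frees glucose from its phosphate at the last step of both gluconeogenesis and glycogen breakdown. Its 1 probe set, 1417880_at (gene on chromosome 11, 101367716 to 101377903), gave 11.40, 10.82 and 11.38 in A/J, against 10.97, 10.53 and 11.12 in A/J-12SM. Replicate 2 was the lowest array in both strains, and the strains overlapped. The difference was -0.33 ± 0.183 (SE, n = 3; 95% interval -0.74 to 0.08), adjusted p = 0.83 (limma). Leaving out 1 array at a time moved it between -0.52 and -0.16, the extremes being without A/J replicate 2 and without A/J-12SM replicate 2. The genes nearest to G6pc over the 6 arrays were Rin2, Gm6787 and Vars2, at distances of 0.0551, 0.0672 and 0.0734 where the SD of G6pc was 0.337.

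Within each array, the log2 signal of Pck1 minus that of G6pc does not depend on a scaling factor of the array. Only its change between arrays has a meaning, since signals of different probe sets have no common scale. It was -0.03, 0.44 and 0.30 in A/J, against 1.06, 1.52 and 1.52 in A/J-12SM. Every A/J-12SM array thus stood above every A/J array, and the means differed by 1.13 with within-strain SDs of 0.242 and 0.267. From the deposited values the same contrast differed by 1.15. The pair was chosen after the values were seen, so no test is given.

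Pcx encodes pyruvate carboxylase, which supplies oxaloacetate to gluconeogenesis and to the citric acid cycle. Its tested probe set, 1416383_a_at (gene on chromosome 19, 4510472 to 4621752), gave 11.76, 11.70 and 11.68 in A/J, against 11.49, 11.52 and 11.43 in A/J-12SM. The strains did not overlap, and the arrays of each strain lay close together, with SDs of 0.0422 and 0.0496. The difference was -0.23 ± 0.0771 (SE, n = 3; 95% interval -0.40 to -0.06), adjusted p = 0.688 (limma), and it was -0.39 as deposited and -0.15 with arrays centred on their medians. The 4 control probe sets of Pcx also had lower means in A/J-12SM, with differences of -0.13 for the 3′ end, -0.29 for the 5′ end and -0.12 and -0.38 for the middle sets MA and MB. The 3′ end and MB sets did not overlap between the strains, while the 5′ end and MA sets did. As deposited none of the 4 overlapped, with differences of -0.31 (3′ end), -0.51 (5′ end), -0.34 (MA) and -0.58 (MB). The ratio of the 5′ to the 3′ control signal of Pcx was 0.302, 0.254 and 0.276 in A/J, against 0.265, 0.241 and 0.218 in A/J-12SM, so that the 2 lowest arrays were both A/J-12SM. The part of RNA integrity in the Pcx difference was not tested.

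Fbp1, which encodes fructose bisphosphatase, was among the brightest probe sets of the array. Its probe set 1448470_at (gene on chromosome 13, 62864753 to 62888298) gave 13.91, 13.92 and 14.02 in A/J, against 14.00, 13.91 and 14.04 in A/J-12SM. The arrays of the strains lay among each other, and the difference was 0.03 (95% interval -0.16 to 0.23). For Slc2a2, the GLUT2 transporter (1449067_at, gene on chromosome 3, 28697903 to 28728361), the values were 12.90, 12.85 and 12.88 in A/J, against 12.88, 12.81 and 13.10 in A/J-12SM. Here 1 array, A/J-12SM replicate 3, stood above the other 5, and the difference of 0.05 (95% interval -0.16 to 0.27) was -0.03 without it. Both differences were below 0 as deposited, at -0.04 for Fbp1 and -0.05 for Slc2a2. With arrays centred on their medians they were 0.20 for Fbp1 and 0.19 for Slc2a2.

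**Figure D2:**
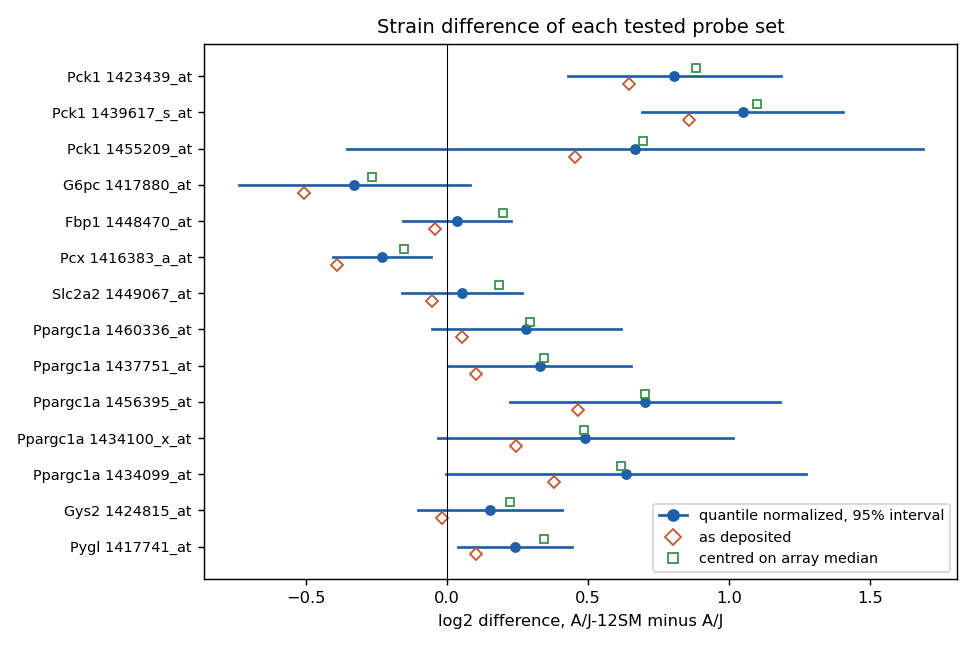
Log2 difference, A/J-12SM minus A/J, of each of the 14 tested probe sets (blue point, n = 3 arrays per strain) with its 95% interval from limma (blue line), beside the difference as deposited (open diamond) and after centring each array on its median (open square). The intervals of both bright Pck1 probe sets, of Pygl and of Ppargc1a 1456395_at and 1437751_at lie above 0, and that of Pcx below 0. The diamonds of Fbp1, Slc2a2 and Gys2 fall on the other side of 0 from their blue points.

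Ppargc1a encodes PGC-1alpha, a coactivator of nuclear receptors and FOXO1 that is induced in the fasted liver. Its 5 probe sets (gene on chromosome 5, 51454249 to 52115853) had differences of 0.28 to 0.70, with adjusted p values of 0.622 or more (limma). The brightest, 1460336_at, gave 8.19, 7.87 and 8.16 in A/J, against 8.61, 8.27 and 8.17 in A/J-12SM, where A/J-12SM replicate 3 lay within the A/J range. Its difference was 0.28 ± 0.149 (SE, n = 3; 95% interval -0.05 to 0.62). The probe set with the highest difference, 1456395_at, gave 7.10, 6.44 and 6.98 in A/J, against 7.80, 7.25 and 7.58 in A/J-12SM. There the strains did not overlap and the difference was 0.70 ± 0.214, adjusted p = 0.622. For 1437751_at the values were 7.35, 7.28 and 7.08 in A/J, against 7.53, 7.45 and 7.71 in A/J-12SM, again without overlap, with a difference of 0.33. The remaining probe sets, 1434100_x_at and 1434099_at, differed by 0.49 and 0.63 and overlapped between the strains; the suffix x marks probes that may bind other sequences too. As deposited, all 5 differences were still above 0, between 0.06 and 0.46, but the arrays overlapped for each of them.

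Gys2, liver glycogen synthase (1424815_at, gene on chromosome 6, 142422612 to 142473130), gave 11.10, 11.09 and 10.94 in A/J, against 10.95, 11.37 and 11.27 in A/J-12SM. A/J-12SM replicate 1 lay with the A/J arrays and the other 2 above them. The difference was 0.15 (95% interval -0.10 to 0.41), adjusted p = 0.866 (limma). It was -0.02 as deposited and 0.22 with arrays centred on their medians. Pygl, liver glycogen phosphorylase (1417741_at), gave 12.33, 12.19 and 12.29 in A/J, against 12.57, 12.37 and 12.59 in A/J-12SM. All A/J-12SM arrays stood above all A/J arrays after normalization, by 0.24 ± 0.0904 (SE, n = 3, 95% interval 0.04 to 0.44), adjusted p = 0.751 (limma). As deposited the difference was 0.10 and the arrays overlapped, and with arrays centred on their medians it was 0.34. Pygl lies on chromosome 12 (70190815 to 70227683), which comes from SM/J in A/J-12SM, and whether a sequence difference under its probes bears on the signal was not tested.

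**Figure D3:**
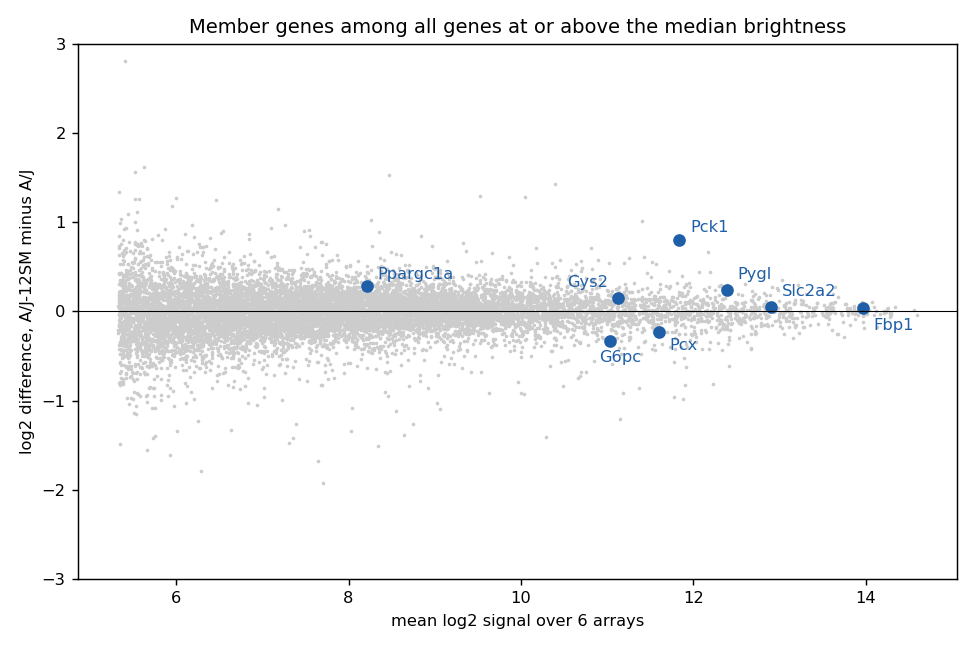
Log2 difference, A/J-12SM minus A/J, against the mean log2 signal over the 6 arrays for the 11042 genes at or above the median brightness, each by its brightest probe set (grey), with the 8 measured genes of glucose metabolism in blue. 1 gene beyond the vertical axis is not drawn. Pck1 lies near the upper edge of the genes of like brightness, and the other 7 lie within the grey cloud.

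The pathway around these genes was described with 7 lists of companion genes, which held 89 genes, 80 of them measured. Of these, 34 had a higher and 46 a lower mean in A/J-12SM (median -0.02), and with the values as deposited 15 were higher and 65 lower. With arrays centred on their medians the majority turned, with 43 higher and 37 lower (median 0.03). None was called (smallest adjusted p 0.373, limma). An unadjusted p under 0.05 was found for 15 of the 80, all among the 77 at or above the median brightness, where 7.98% of all bright genes had one. Arrays did not overlap for 16 of the 80, 8 higher and 8 lower and all of them bright, against 14% of all bright genes. None of the 80 lies on chromosome 12.

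Of the genes that bring substrates into gluconeogenesis, 4 of 15 had higher and 11 lower means (median -0.09), but 8 were higher and 7 lower with arrays centred on their medians. Got1, the cytosolic aspartate aminotransferase, gave 10.51, 10.31 and 10.43 in A/J, against 11.20, 10.98 and 10.74 in A/J-12SM. Its strains did not overlap, with a difference of 0.56 ± 0.12 (SE, n = 3) and an adjusted p of 0.373. Gpt2, the mitochondrial alanine aminotransferase, gave 11.89, 11.76 and 11.81 in A/J, against 11.50, 11.50 and 11.37 in A/J-12SM. It lay lower in every A/J-12SM array, by -0.36 ± 0.0818, adjusted p = 0.392. Mpc1, a subunit of the mitochondrial pyruvate carrier, differed by -0.26 without overlap. Gk and Mpc2 had no probe set of 1 gene and were not analysed here.

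The 3 measured enzymes of the reversible steps had lower means, with differences of -0.18 for Tpi1, -0.14 for Pgam1 and -0.07 for Pgk1, the last of which was 0.03 with arrays centred on their medians. Both other genes of the glucose 6-phosphatase system were also close to 0: Slc37a4, the transporter that carries glucose 6-phosphate to the enzyme, differed by -0.05 (0.01 with arrays centred on their medians) and G6pc3, the widely expressed catalytic subunit, by -0.14. Of 14 genes of glycolysis and pyruvate oxidation, 4 were higher and 10 lower (median -0.08). Mlxipl, which encodes the glucose-responsive factor ChREBP, was higher in every A/J-12SM array, by 0.34 ± 0.0959, adjusted p = 0.589 (limma). Pfkfb3 and Pdk4, the latter a kinase that inhibits pyruvate dehydrogenase, differed by 0.37 and -0.34 with overlapping arrays and SEs of 0.426 and 0.286. In glycogen metabolism 4 of 16 were higher and 12 lower (median -0.06). Gbe1, the glycogen branching enzyme, gave 9.84, 9.96 and 9.90 in A/J, against 9.56, 9.50 and 9.52 in A/J-12SM. These arrays were clearly apart, with a difference of -0.38 ± 0.0844 and an adjusted p of 0.392. Ugp2, which makes UDP-glucose, was higher without overlap, by 0.28, and Ppp1r3b, a glycogen-targeting subunit of protein phosphatase 1, differed by -0.28 with overlap.

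Of 20 genes of transcriptional and hormonal control, 14 had higher and 6 lower means (median 0.12). As deposited, where the median over all probe sets was -0.22, 3 were higher and 17 lower. With arrays centred on their medians 15 were higher and 5 lower. The highest differences were those of Ppargc1b, the paralog of Ppargc1a, at 0.44 ± 0.185, of Foxa2 at 0.39 ± 0.166 and of Foxo1, the insulin-inhibited activator of G6pc and Pck1, at 0.33 ± 0.127 (SE, n = 3). Foxo1 gave 8.23, 8.35 and 8.12 in A/J, against 8.48, 8.44 and 8.78 in A/J-12SM. Neither Foxo1 nor Ppargc1b overlapped between the strains, Foxa2 did, and their adjusted p values were 0.759 or more (limma). The glucagon receptor (Gcgr) differed by -0.09, the glucocorticoid receptor (Nr3c1) by 0.16 and Hnf4a by -0.03, all within their intervals around 0; these 3 were picked after their values were seen.

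Genes that answer to cAMP, glucocorticoids or FOXO factors, as Pck1 does, had higher means in 8 of 11 cases and lower in 3 (median 0.28). As deposited 6 were higher and 5 lower, and with arrays centred on their medians 8 were higher and 3 lower. Igfbp1, a target of FOXO1, gave 8.82, 8.14 and 8.84 in A/J, against 8.91, 8.99 and 10.11 in A/J-12SM. The strains were only just apart except for A/J-12SM replicate 3, which was far above the rest, and the difference was 0.74 ± 0.302 (SE, n = 3), adjusted p = 0.789. Per1, a clock gene that is also induced by glucocorticoids, gave 5.13, 5.48 and 5.34 in A/J, against 6.34, 6.16 and 5.88 in A/J-12SM. It differed by 0.81 ± 0.259 with an adjusted p of 0.654 (limma), without overlap, at only the 55.7th percentile of brightness. Crem, a cAMP-responsive modulator, differed by 0.37 ± 0.115, also without overlap, adjusted p = 0.642 (limma). The list is not of 1 direction: Tsc22d3, a glucocorticoid-induced gene named after its values were seen, differed by -0.36 and Pdk4 by -0.34.

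**Figure D4:**
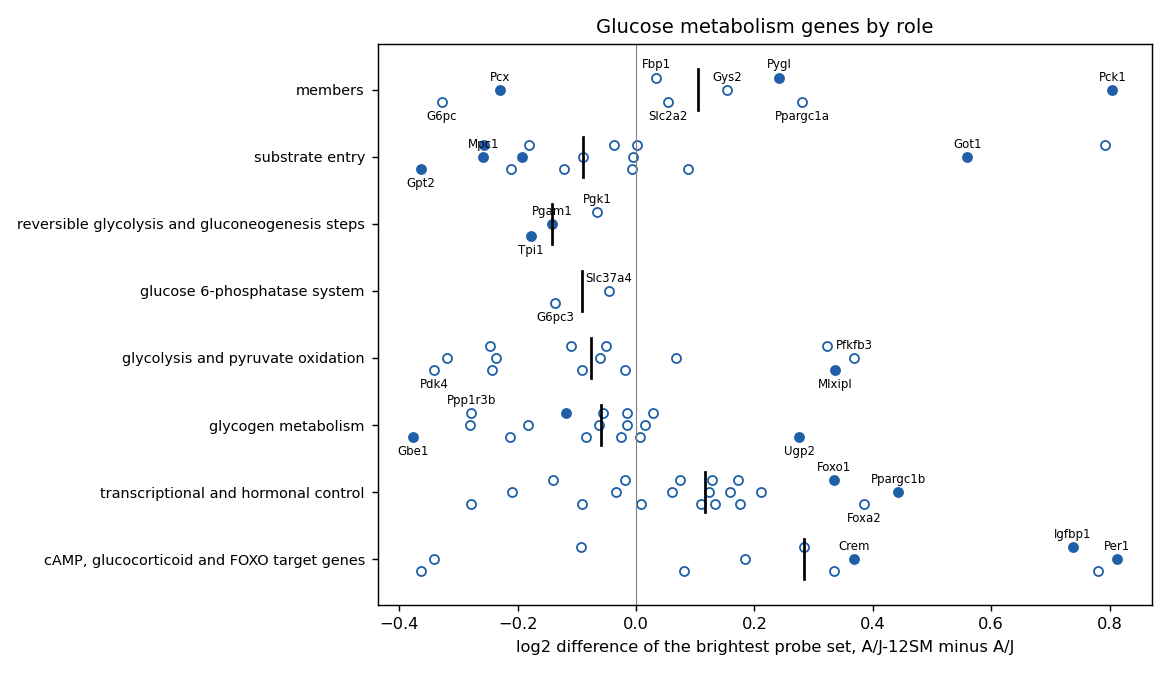
Log2 difference, A/J-12SM minus A/J, of the brightest probe set of each measured gene, in 1 row per list of genes. Filled points have arrays that do not overlap between the strains, open points overlap, and the black bar is the median of the list. Named points are the 8 measured genes described first and up to 3 genes per list. The medians lie between -0.14 and 0.28, and Pck1 at 0.81 and Per1 at 0.81 are the points farthest to the right. Close to them lie Pck2 (0.79) and Irs2 (0.78), which are below the median brightness and not named on the plot.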

How the data were processed

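Liver RNA of male A/J and A/J-12SM mice was hybridised to 6 one-colour Affymetrix arrays, 3 per strain, with strain and replicate taken from the labels. The values, as deposited, are intensities on a linear scale, which the submitters' processing notes credit to MAS5 (each probe set's probes summarised after background correction). The signals were log2 transformed without an offset and quantile normalized over the 45037 probe sets that are not among the 64 controls. The controls were normalized together with the rest for description only. Strain differences were fitted to all these probe sets with limma 3.58.1 in R 4.3.3 (lmFit, eBayes with a brightness trend) with Benjamini-Hochberg adjustment over all of them, and calls were made at 0.05. The model was also run on simulated arrays with independent normal noise, a simpler setting than these arrays, and no result here rests on that run. Single values were also compared by exact permutation of the arrays. The authors' array scaling is not given in the sources used here, and the arrays' number limits the precision.

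Of the tested probe sets, 34945 have 1 gene in the platform annotation, 932 several and 9160 none. Symbols were updated through RefSeq for 34741 of them, and only probe sets with 1 gene were named. Where a gene was taken once, its probe set with the highest mean over the 6 arrays was used. Named were all probe sets of the member genes, up to 3 genes per companion list with the largest differences among those at or above the median brightness, and, for the members varying most (Pck1 and G6pc), the 3 genes with the nearest values over the arrays. The members and lists were chosen with earlier results of these data known. Promoter windows came from RefSeq. Alternatives were 3 other scalings, an offset, a filter on dim probe sets, 1 prior variance, a replicate block, leaving out each array and the methods' t-test. Plots used matplotlib 3.10.9 (Python 3.11.15).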

Additional observations from a re-analysis of the deposited data

How the results depend on the processing

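Over the member probe sets, 189 of 195 alternative values kept both direction and side of the threshold. With the values as deposited, 3 turned below 0: Fbp1 (-0.041), Slc2a2 (-0.053) and Gys2 (-0.016). Slc2a2 ranged from -0.032 to 0.116 when each array was left out in turn and was below 0 only without A/J-12SM replicate 3. The median difference over the 8 genes, 0.104, was -0.028 as deposited and 0.211 with arrays centred on their medians, while those of all probe sets were -0.22 and 0.02. The number of all probe sets called, 25, was 47 as deposited, 1 with 1 prior variance, and 6 to 23 without 1 array, the lowest without A/J replicate 2. The methods' t-test called 1 after Benjamini-Hochberg adjustment and 2630 at an unadjusted p under 0.05. At that unadjusted threshold it called 5 of the 14 member probe sets and 6 of the 80 companion genes, beside the 2630 of all 45037 probe sets.

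A fit with the replicate block called 2 of the 14 member probe sets, both of Pck1, where the fit without it called 0. Over all 45037 probe sets the fit with the block called 28, against 25 without it. The adjusted p values with the block were 0.0346 for 1423439_at and 0.0137 for 1439617_s_at (limma). Over all alternatives they ranged from 0.0346 to 0.943 and from 0.0137 to 0.73. The numbers are not known to pair the arrays: same-numbered arrays correlated at -0.0565, 0.0892 and 0.156 in their deviations from the strain means, and not every array matched its own number best. With 3 pools per strain the precision is limited, and the dim probe set of Pck1 was below the 40th percentile of brightness and so had no value under that filter.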
